A study of Mus musculus with 48 samples.

Results

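Skin from C3H/HeJ mice treated with jak3i was set against skin from mice given phosphate-buffered saline through a pump (PBS pump), both taken at the time point titled week 6. The titles gave 5 jak3i arrays and 3 PBS pump arrays, 8 of the 48 arrays in the series. C3H/HeJ is an inbred mouse strain that can develop alopecia areata, an autoimmune hair loss in which T cells attack the hair follicle, and the series asked whether inhibitors of the interleukin-15 pathway prevent it. The jak3i agent is tofacitinib, a small molecule that inhibits Janus kinases, as known from the study and not from the labels. All 8 samples carried the same labels for strain, tissue and time on treatment, given as 5/6 weeks, and they differed in treatment alone. Dose, age, sex, route of the inhibitor and any induction of disease were not given in the labels, and the replicates were described as biological without naming animals. Other arrays used here were 5 of jak12i and 5 of PBS given by gavage at week 6, and 3 of jak3i and 3 of PBS pump at week 13, all of C3H/HeJ skin.

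Janus kinases sit on the inner side of cytokine receptors and phosphorylate STAT factors, which enter the nucleus and switch on target genes. The kinase JAK3 serves receptors with the common gamma chain, including those for interleukins 2, 7 and 15, on which cytotoxic T cells depend. JAK1, JAK2 and TYK2 carry the signals of type I interferons and interferon gamma. Type I interferon induces antiviral genes, and interferon gamma induces antigen presentation genes and the chemokines that draw T cells into tissue. In alopecia areata skin, cytotoxic T cells and interferon gamma targets are the well known signature.

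The values were log2 signals, so a difference of 1 is a doubling. Signals of different genes were not compared with each other. The epidermal keratin Krt5 lay between 12.42 and 12.96 over the 8 arrays and the dermal collagen Col3a1 between 13.91 and 14.40, both high as in skin. The muscle actin Acta1 was also high, between 14.34 and 14.53, so the samples held muscle. Hair shaft keratins were low, with Krt31 between 6.05 and 6.26. Because whole skin was profiled, fewer cells of a type and less RNA per cell cannot be told apart in any result here.

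The replicates were not equally alike. PBS pump replicates 2 and 3 correlated at r = 0.992 across the genes tested, while PBS pump replicate 1 correlated with them at 0.979 to 0.981 and with the jak3i arrays at 0.980 to 0.985. The jak3i arrays correlated among themselves at 0.981 to 0.988. PBS pump replicates 2 and 3 correlated with the jak3i arrays at 0.963 to 0.977. The PBS pump arrays were thus split into replicate 1 and replicates 2 and 3. These values do not show which side is typical of the vehicle. Results are given below without replicate 1, or without each PBS pump array in turn, where that matters.

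Of 13648 genes tested with limma, 62 were called higher in jak3i (0.454%) and 497 lower (3.64%), at a Benjamini-Hochberg adjusted p under 0.05. For 1245 genes (9.12%) every jak3i array lay on the same side of every PBS pump array, and that held for 443 of the 559 called genes. The lower calls had a median log2 change of -0.63 and the higher calls one of 0.39, against -0.001 over all genes tested. A log2 change below -1 was reached by 102 called genes, and none of the called genes exceeded 1. Without PBS pump replicate 1 the count was 895, with 327 higher and 568 lower. It was 165 without replicate 2 and 203 without replicate 3. Leaving out a jak3i array gave between 364 and 682 calls, and 123 genes (3 higher and 120 lower) were called with all arrays and after each of the 8 omissions.

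**Figure D1:**
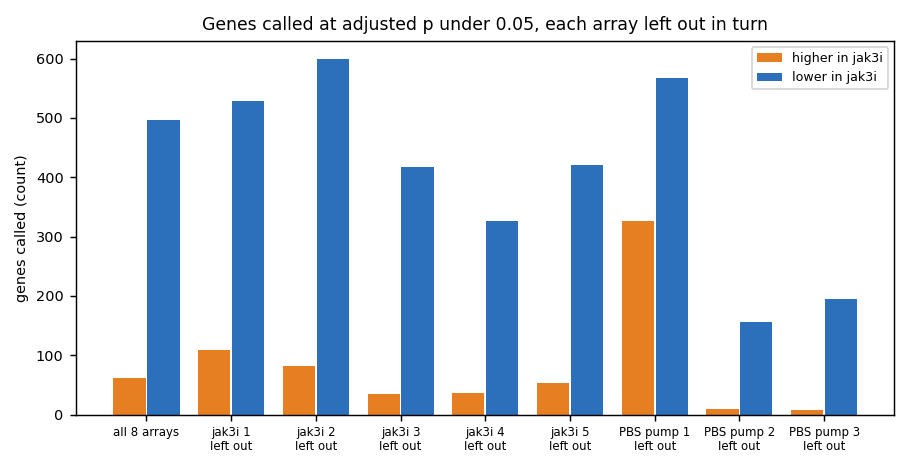
Number of genes called at adjusted p under 0.05 between jak3i and PBS pump at week 6 (vertical axis), with all 8 arrays and with each array left out in turn; orange bars count genes higher in jak3i and blue bars genes lower in jak3i. The lower calls outnumber the higher calls in every fit shown, and the count ranges from 165 without PBS pump 2 to 895 without PBS pump 1.

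Antiviral genes that type I interferon induces fell. Of 29 tested members, 15 were called lower and none higher, with a median log2 change of -0.82. Between 12 and 16 members were called when any 1 array was left out. The list's mean level was 7.26 to 7.52 in the jak3i arrays and 8.11, 8.42 and 8.70 in the PBS pump arrays.

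Ddx60, an RNA helicase that aids viral RNA sensing, read 5.33, 5.22, 5.34, 4.99 and 5.28 in jak3i arrays, against 7.14, 7.85 and 7.80 in PBS pump arrays. Every jak3i value lay below every PBS pump value. The log2 change was -2.37 ± 0.34 (SE, limma, adjusted p = 9.75e-05). The jak3i mean lay below 5.61, the highest lower quartile of the week 6 arrays, so the fold is a bound: Ddx60 was at least 3.97-fold lower.

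Oasl2, an oligoadenylate synthetase-like protein, read 5.03, 5.06, 4.57, 4.60 and 4.66 in jak3i arrays, against 6.70, 6.75 and 7.32 in PBS pump arrays. It changed by -2.14 ± 0.38 (SE, limma, adjusted p = 0.000515), a fall of at least 2.49-fold because the jak3i mean was near background. Ifit1, which binds viral RNA lacking the host cap pattern, read 5.43, 6.02, 5.45, 5.21 and 5.47 in jak3i arrays, against 7.18, 7.48 and 8.14 in PBS pump arrays. Its log2 change was -2.09 ± 0.42 (limma, adjusted p = 0.0022), again near background in jak3i, at least 3.98-fold lower. Rtp4, an interferon-induced receptor transporter, read 7.84, 8.12, 7.99, 7.70 and 7.75 in jak3i arrays, against 9.47, 9.90 and 10.34 in PBS pump arrays. It fell 4.08-fold, by 2.03 ± 0.34 on the log2 scale (limma, adjusted p = 0.000311), again with no overlap. Another probe set for Rtp4 moved by -0.15.

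The other 11 called members fell by between 0.82 (Eif2ak2) and 2.13 (Ifi44l). Among them, Usp18, a brake on type I interferon signalling, changed by -1.52, Xaf1 by -1.44 and Samd9l by -1.06.

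The interferon-stimulated response element, known from promoters of many interferon-induced genes, has the core GAAA, any 2 bases, then GAAA. It was searched on both strands in windows from 250 bases before to 50 after the gene start, from RefSeq on GRCm38.p6. Of tested genes with a window, 388 of 10883 (3.57%) held it, as did 34 of 402 genes called lower, 0 of 51 called higher and 7 of 12 called antiviral members. Over the whole antiviral list 10 of 19 held it. So did 8 of 12 interferon gamma response genes, none of which was called at week 6. Of 11 called macrophage members with a window, 0 held it. The following 160-base stretches show promoters of called antiviral genes with 2 copies, and Ifit3 and Oas1a were added after their values were seen. Each is read 5′ to 3′ along the gene's strand, and capitals mark the motif on either strand.
Ifit1, chr19:34640729-34640888, plus strand: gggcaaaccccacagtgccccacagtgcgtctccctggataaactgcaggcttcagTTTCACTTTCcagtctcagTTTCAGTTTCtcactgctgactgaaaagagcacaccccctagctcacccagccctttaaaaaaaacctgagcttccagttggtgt
Ifit3, chr19:34583369-34583528, plus strand: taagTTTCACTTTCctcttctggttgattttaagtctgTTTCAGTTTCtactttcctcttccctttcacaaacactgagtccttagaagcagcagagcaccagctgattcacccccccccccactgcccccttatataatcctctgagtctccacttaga
Ddx60, chr8:61927927-61928086, plus strand: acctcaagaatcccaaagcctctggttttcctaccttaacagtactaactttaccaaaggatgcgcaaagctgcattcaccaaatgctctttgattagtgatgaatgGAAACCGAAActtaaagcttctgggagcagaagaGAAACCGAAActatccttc
Oas1a, chr5:120907526-120907685, minus strand: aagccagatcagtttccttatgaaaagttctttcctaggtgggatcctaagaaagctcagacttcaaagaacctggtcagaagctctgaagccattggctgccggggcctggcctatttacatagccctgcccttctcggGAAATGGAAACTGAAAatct
In Oas1a the copies overlap. A match is a description of the letters, and windows of Oasl2, Ifit2, Ifi44l, Xaf1 and Samd9l held none.

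The signalling genes moved less. Of 18 interferon receptors and regulators, 4 were called lower, with a median of -0.19. Irf9, an interferon regulatory factor, read 8.48, 8.14, 8.05, 8.13 and 8.13 in jak3i arrays, against 9.26, 8.95 and 8.88 in PBS pump arrays, a log2 change of -0.84 ± 0.18 (limma, adjusted p = 0.00328). Ifnar2, a chain of the type I interferon receptor, changed by -0.88 ± 0.14 (adjusted p = 0.000145). None of 8 JAK and STAT genes was called, and their changes ran from -0.40 (Stat2) to -0.08 (Stat5a). Jak1 changed by -0.19, Jak2 by -0.18 and Tyk2 by -0.12. The 3 probe sets of Jak1 ranged from -0.83 to -0.19. Jak3 itself and Foxp3 lay below the filter. None of 7 gamma chain cytokine and receptor genes was called either: Il15 changed by -0.08, Il15ra by -0.08 and Il2rb, the receptor chain shared by interleukins 2 and 15, by -0.34 ± 0.13 (limma, adjusted p = 0.153).

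**Figure D2:**
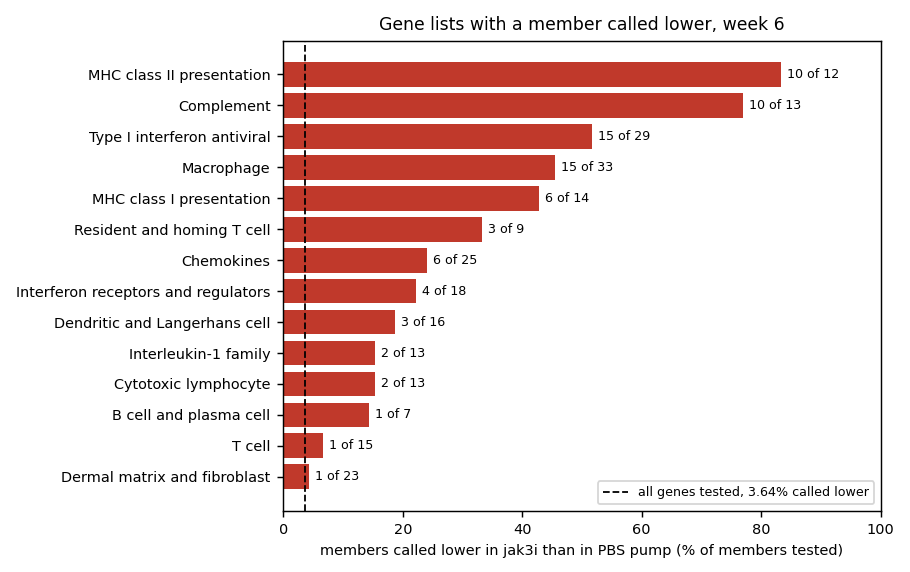
Share of tested members called lower in jak3i than in PBS pump at week 6 (horizontal axis, % of members tested) for the 14 gene lists with such a member; the dashed line marks the 3.64% of all genes called lower. MHC class II, complement, antiviral and macrophage genes have the highest shares, and T cell and dermal matrix genes lie near the line.

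Antigen presentation genes fell. MHC class II molecules show peptides to CD4 T cells, and 10 of their 12 tested genes were called lower, with a median of -0.68. H2-Ab1, a class II beta chain, read 10.78, 10.58, 10.87, 10.60 and 10.80 in jak3i arrays, against 11.34, 11.57 and 11.45 in PBS pump arrays. Its change was -0.72 ± 0.12 (limma, adjusted p = 0.000302), 1.65-fold lower. Cd74, the invariant chain that loads class II, read 10.37, 9.89, 10.10, 9.90 and 10.19 in jak3i arrays, against 10.76, 10.97 and 11.04 in PBS pump arrays. It fell by 0.83 ± 0.14 (limma, adjusted p = 0.000311).

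MHC class I genes, which show peptides to CD8 T cells, followed with 6 of 14 called lower and a median of -0.30. H2-K1, a class I heavy chain, read 9.92, 9.80, 9.97, 9.88 and 9.62 in jak3i arrays, against 10.76, 10.62 and 10.41 in PBS pump arrays (log2 change -0.76 ± 0.15, limma, adjusted p = 0.00182). B2m, the class I light chain, was called at a change of only -0.23. Without 1 PBS pump array, 4 to 9 class II genes and 2 to 4 class I genes were called.

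Few T cell genes were called, and the list's median change was -0.19. Of 15 tested T cell genes only Cd3g, a subunit of the T cell receptor complex, was called. Cd3g read 6.32, 6.09, 6.25, 5.86 and 6.10 in jak3i arrays, against 8.14, 7.78 and 7.18 in PBS pump arrays, with no overlap, and fell 2.98-fold (log2 change -1.57 ± 0.23, limma, adjusted p = 9.75e-05). It was called after every omission of 1 array. The sister subunits Cd3d and Cd3e changed by -0.37 and -0.19 and were not called. Cd8a, the coreceptor of cytotoxic T cells, read 8.47, 8.45, 8.50, 8.34 and 8.66 in jak3i arrays, against 8.39, 8.65 and 8.66 in PBS pump arrays, a change of -0.09 ± 0.18 (limma, adjusted p = 0.902). The 5 probe sets of Cd8a ranged from -0.61 to 0.07.

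Of 13 cytotoxic lymphocyte genes, 2 were called lower, and 5 were called in a fit of the 8 arrays alone. All 13 changes were negative, with a median of -0.47. For 8 of the 13 the arrays did not overlap, against 9.12% of all genes tested. The list's mean level was 6.24 to 6.36 in jak3i arrays and 6.90, 6.85 and 6.92 in PBS pump arrays. In jak3i, 5 of the 13 were near background. Ctsw, a protease of killer cells, read 7.02, 6.97, 7.29, 7.11 and 7.32 in jak3i arrays, against 8.09, 8.28 and 7.92 in PBS pump arrays (log2 change -0.95 ± 0.19, limma, adjusted p = 0.00185). The granzyme Gzmc, near background in jak3i, was called with all arrays (-1.43 ± 0.43, adjusted p = 0.0489) and after none of the 8 omissions. The effector proteins granzyme B and perforin were not called: Gzmb changed by -0.41 and Prf1 by -0.47. Of 9 resident and homing genes, 3 were called lower, among them Itgae, the integrin that tethers T cells to epithelium, at -1.07 ± 0.24 (adjusted p = 0.00662), and the chemokine receptor Cxcr6 at -1.11 ± 0.30 (adjusted p = 0.0269). Without PBS pump replicate 2 none of the 9 was called, and Cxcr6 was called after 4 of the 8 omissions.

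None of 18 interferon gamma response genes was called. The T cell attracting chemokine Cxcl9 read 7.20, 5.78, 7.76, 6.26 and 6.67 in jak3i arrays, against 8.13, 8.65 and 8.15 in PBS pump arrays. The arrays did not overlap, but the change of -1.57 ± 0.66 did not pass (limma, adjusted p = 0.205). Cxcl10 changed by -0.76 ± 0.42 (limma, adjusted p = 0.387), and its arrays did not overlap either. Its SD was 0.26 in jak3i, 0.11 in PBS pump and 0.80 in PBS gavage, and the SE pools the spread of all groups. In a fit of the 8 arrays alone, 1 of the 18 genes was called. Ifng itself was at or near background in all 8 arrays, between 4.56 and 5.42.

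**Figure D3:**
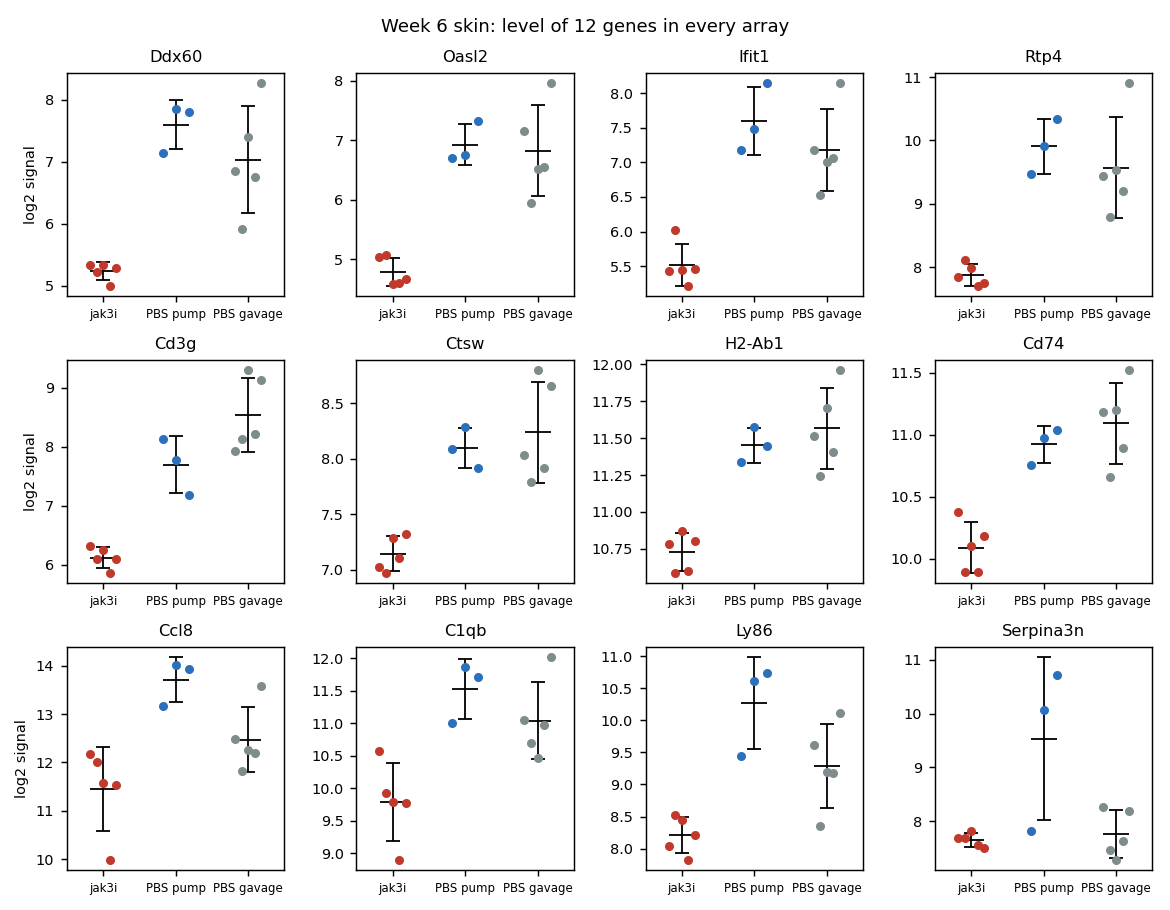
Log2 signal (vertical axis) of 12 genes in the week 6 arrays, 5 of jak3i, 3 of PBS pump and 5 of PBS gavage; points are arrays, and bars show the mean and SD. Antiviral and class II genes are low in jak3i and similar in both vehicles, while Ccl8, Ly86 and Serpina3n are on average highest in PBS pump.

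Macrophage and complement genes also fell. Of 33 macrophage genes, 15 were called lower, with a median of -0.85, and of 13 complement genes 10 were called lower, with a median of -1.19. The mean level of the macrophage list was 7.90 to 8.62 in jak3i arrays and 8.75, 9.39 and 9.31 in PBS pump arrays, so PBS pump replicate 1 lay nearest to jak3i. The mean level of the complement list was 8.61 to 9.26 in jak3i arrays and 9.69, 10.35 and 10.39 in PBS pump arrays. Without 1 PBS pump array, between 4 and 19 macrophage genes and between 4 and 11 complement genes were called.

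Ly86, the partner of a Toll-like receptor relative on myeloid cells, read 8.05, 8.52, 8.44, 7.82 and 8.21 in jak3i arrays, against 9.44, 10.62 and 10.74 in PBS pump arrays. It fell 4.17-fold (log2 change -2.06 ± 0.31, limma, adjusted p = 0.000143). C1qb, a chain of the complement initiator C1q that macrophages make, read 10.57, 9.93, 9.78, 8.90 and 9.78 in jak3i arrays, against 11.0048, 11.86 and 11.72 in PBS pump arrays. It fell 3.33-fold (-1.74 ± 0.34, adjusted p = 0.00166).

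The macrophage receptor Fcgr2b changed by -1.79 ± 0.27 (limma, adjusted p = 0.000119) and the monocyte homing receptor Ccr2 by -1.80 ± 0.35 (adjusted p = 0.00146). Their probe sets ranged from -1.79 to 0.02 for Fcgr2b and from -1.80 to -0.39 for Ccr2. The pan-macrophage markers Adgre1 and Csf1r were called at -1.13 and -0.81, and Cd68 was not (-0.90, adjusted p = 0.0505). The myeloid lectin receptor Clec4a3 changed by -1.87 ± 0.30 (adjusted p = 0.000179) and Plac8 by -2.08 ± 0.41 (adjusted p = 0.00142). Among dendritic cell genes 3 of 16 were called lower, and Cd209e, a lectin of the DC-SIGN family, read 6.13, 5.92, 5.89, 5.99 and 6.64 in jak3i arrays, against 7.45, 8.82 and 9.0026 in PBS pump arrays (-2.31 ± 0.43, adjusted p = 0.000755).

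Chemokines made by myeloid cells and stroma fell with them, 6 of 25 tested. Ccl8, a monocyte and T cell attractant, read 12.18, 12.00, 11.58, 9.98 and 11.54 in jak3i arrays, against 13.17, 14.02 and 13.94 in PBS pump arrays. It fell 4.76-fold (-2.25 ± 0.35, limma, adjusted p = 0.000145). Ccl6 changed by -1.91, Ccl9 by -1.60 and the eosinophil attractant Ccl11 by -1.43 ± 0.21 (adjusted p = 0.000103). Cxcl13, which attracts B cells, had the lowest change among called genes, -2.61 ± 0.70 (adjusted p = 0.0239), but its groups overlapped. It is named here after its value was seen.

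Serpina3n, a protease inhibitor of acute inflammation, shows how much the PBS pump arrays differed. It read 7.68, 7.68, 7.81, 7.55 and 7.49 in jak3i arrays, against 7.82, 10.06 and 10.72 in PBS pump arrays. PBS pump replicate 1 lay just above the highest jak3i array, and the change was -1.89 ± 0.32 (limma, adjusted p = 0.000371). That SE pools the spread of all groups in the fit, while the SD within PBS pump was 1.52. With the 8 arrays alone Serpina3n was not called. In PBS gavage arrays Serpina3n averaged 7.76 ± 0.44 (SD, n = 5).

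With PBS gavage as the vehicle, jak3i gave 6245 calls, of which 4635 were lower (34%). The vehicles themselves differed by 5078 calls of 13648 (37.2%), with 1310 genes higher in PBS pump (9.6%). The comparisons share arrays, so the values of each are given side by side. For the antiviral list the median was -0.82 over PBS pump with 15 called lower, -0.77 over PBS gavage with 18 called lower, and 0.32 for PBS pump over PBS gavage with 2 called higher. For MHC class II the numbers were -0.68 with 10 lower, -0.70 with 10 lower, and -0.11 with 1 higher. For macrophage genes they were -0.85 with 15 lower, -0.26 with 5 lower, and 0.58 with 14 higher. For complement genes they were -1.19 with 10 lower, -0.29 with 2 lower, and 0.67 with 9 higher. For chemokines they were -0.32 with 6 lower, -0.14 with 5 lower and 2 higher, and 0.16 with 8 higher.

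Cd3g averaged 6.12 ± 0.18 in jak3i, 7.70 ± 0.49 in PBS pump (SD, n = 5 and n = 3) and 8.54 ± 0.62 in PBS gavage (n = 5). Wfdc17, a protein of activated macrophages, averaged 8.58 ± 0.95 in jak3i, 10.83 ± 0.79 in PBS pump and 8.89 ± 0.51 in PBS gavage. It changed by -2.25 over PBS pump (limma, adjusted p = 0.000352) and by -0.31 over PBS gavage (adjusted p = 0.462). Only the route distinguishes the vehicles in the labels, and what else differed between them was not tested. The mean level of the skeletal muscle list was 7.22 in PBS gavage replicate 5, against a median of 12.85 over the PBS gavage arrays, and without that array jak3i gave 5604 calls over PBS gavage.

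**Figure D4:**
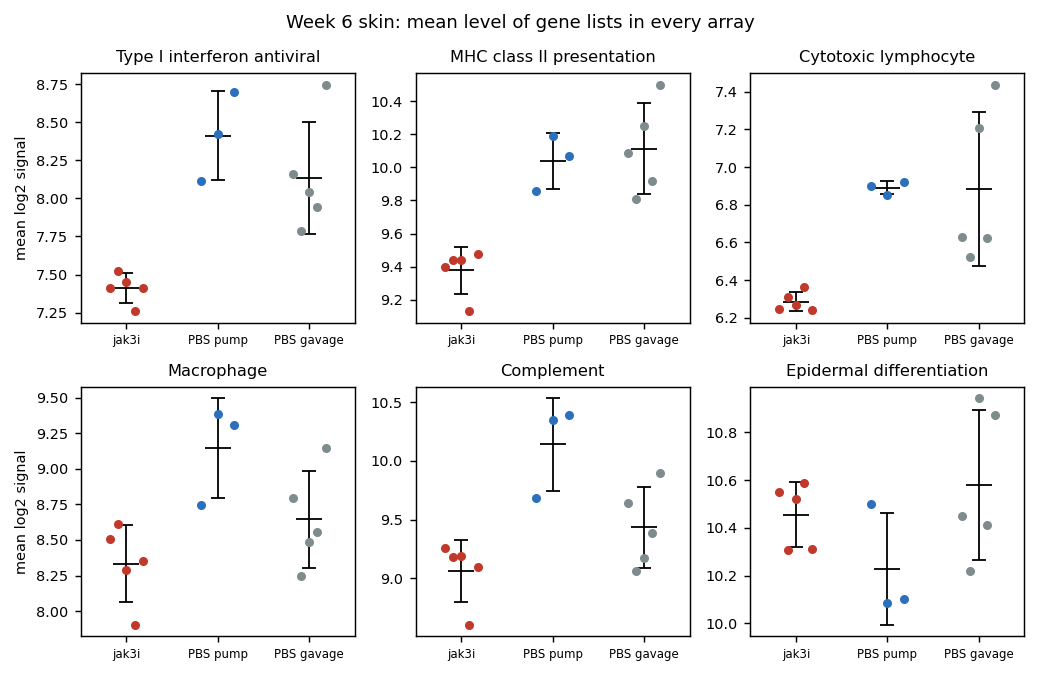
Mean log2 signal (vertical axis) of 6 gene lists in the week 6 arrays, 5 of jak3i, 3 of PBS pump and 5 of PBS gavage; points are arrays, and bars show the mean and SD. The antiviral and MHC class II lists are lower in all jak3i arrays than in all arrays of either vehicle, while for macrophage and complement genes PBS gavage overlaps jak3i.

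Few genes rose. Il1rn, the interleukin-1 receptor antagonist that blocks interleukin-1 signalling, had the largest rise among genes without overlap: 7.82, 8.03, 8.02, 7.96 and 7.83 in jak3i arrays, against 7.51, 6.95 and 6.97 in PBS pump arrays (log2 change 0.79 ± 0.20, limma, adjusted p = 0.0158). Over PBS gavage, which averaged 8.70 ± 0.61, Il1rn changed by -0.77 (adjusted p = 0.000441), the opposite sign. Glt28d2, Kptn and Ak4 rose by 0.66, 0.43 and 0.41 and were the named rises called after each of the 8 omissions. Kptn and Ak4 were not called with the 8 arrays alone or with the mean of all probe sets of a gene. Each had a probe set of opposite sign (-0.02 for both). Glt28d2 (-0.17) and Ak4, a mitochondrial adenylate kinase (-0.44), also had the opposite sign over PBS gavage, and Kptn did not (0.17).

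Of 7 B cell genes 1 was called lower, the immunoglobulin heavy chain Ighm, at -1.31 ± 0.37 (adjusted p = 0.0329), whose probe sets ranged from -1.31 to 0.11 and which was called after 4 of the 8 omissions. Of 13 interleukin-1 family genes, the interleukin-18 receptor chain Il18r1 (-0.61) and the alarmin Il33 (-0.62) were called lower beside the rise of Il1rn. Without PBS pump replicate 2 none of the 13 was called, and Il33 was called after 3 of the 8 omissions. In the dermal matrix list, 1 of 23 was called, the collagen Col14a1 at -1.59, with overlapping groups.

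Epithelial and structural lists held few calls. Of 25 epidermal differentiation genes 0 were called with all arrays, with a median of 0.23, and 6 were called higher without PBS pump replicate 1. The wound keratin Krt6a read 11.17, 10.82, 11.04, 11.03 and 10.75 in jak3i arrays, against 10.43, 9.56 and 9.32 in PBS pump arrays, and its change of 1.19 ± 0.41 did not pass (limma, adjusted p = 0.0955). Without PBS pump replicate 1 it was 1.52 (adjusted p = 0.0364). Over PBS gavage Krt6a changed by -0.11 (limma, adjusted p = 0.822). The epidermal differentiation list had a median of -0.07 over PBS gavage, with 3 called lower and 0 higher. In PBS pump 9 of its 25 genes were called lower than in PBS gavage. Hair shaft, inner root sheath, cell division, adipocyte, muscle and sebaceous lists had no called member. In jak3i replicate 2 the inner root sheath keratin Krt25 read 8.49, against 5.86 to 6.29 in the other jak3i arrays. In all, 26 of 40 lists had no called member, and of 542 tested list genes 79 were called lower and 1 higher.

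At week 13 the contrast between jak3i and PBS pump held 2183 calls, 1320 higher and 863 lower (6.32%), and the change differed between weeks for 1256 genes (9.2%). Week and array batch cannot be told apart in this difference. The spread of signals also differed by week. In PBS pump replicate 1 the lower and upper quartiles were 5.55 and 8.24 at week 6, and 5.36 and 8.71 at week 13. Of 15 T cell genes 1 was called lower at week 6 and 11 at week 13, and the change differed between weeks for 7. Cd8a changed by -0.09 at week 6 and -2.40 at week 13 (limma, adjusted p of the difference 1.52e-06), and Gzmb by -0.41 and -4.67 (adjusted p of the difference 3.33e-06). Cxcl10 changed by -0.76 and -4.80 (adjusted p of the difference 9.69e-05), and Il2rb by -0.34 and -1.59 (0.000106). The PBS pump level of these genes was itself higher on average at week 13. Gzmb averaged 7.19 in PBS pump and 6.78 in jak3i at week 6, against 10.93 and 6.25 at week 13. Cxcl10 averaged 8.20 and 7.44 at week 6, against 11.78 and 6.98 at week 13. Cd8a averaged 8.57 and 8.48 at week 6, against 9.10 and 6.71 at week 13. In the interferon gamma response list 0 of 18 genes were called lower at week 6 and 16 at week 13, and the change differed between weeks for 16.

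Of 29 antiviral genes 15 were called lower at week 6 and 28 at week 13, and the change differed between weeks for 10. Among these was Zbp1, a sensor of nucleic acids named after its values were seen, at -0.58 and -3.21 (limma, adjusted p of the difference 0.00204). For Rtp4 the changes were -2.03 and -2.79 (0.379) and for Cd3g -1.57 and -1.95 (0.528). A difference that does not pass does not show equal changes. Of 33 macrophage genes 15 were called lower at week 6 and 6 at week 13, and the change differed between weeks for 5. The protease inhibitor Serpina3n changed by -1.89 and 0.01 (limma, adjusted p of the difference 0.0104). The epithelial alarmin Il33 changed by -0.62 at week 6 and 0.74 at week 13 (adjusted p of the difference 0.000758).

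**Figure D5:**
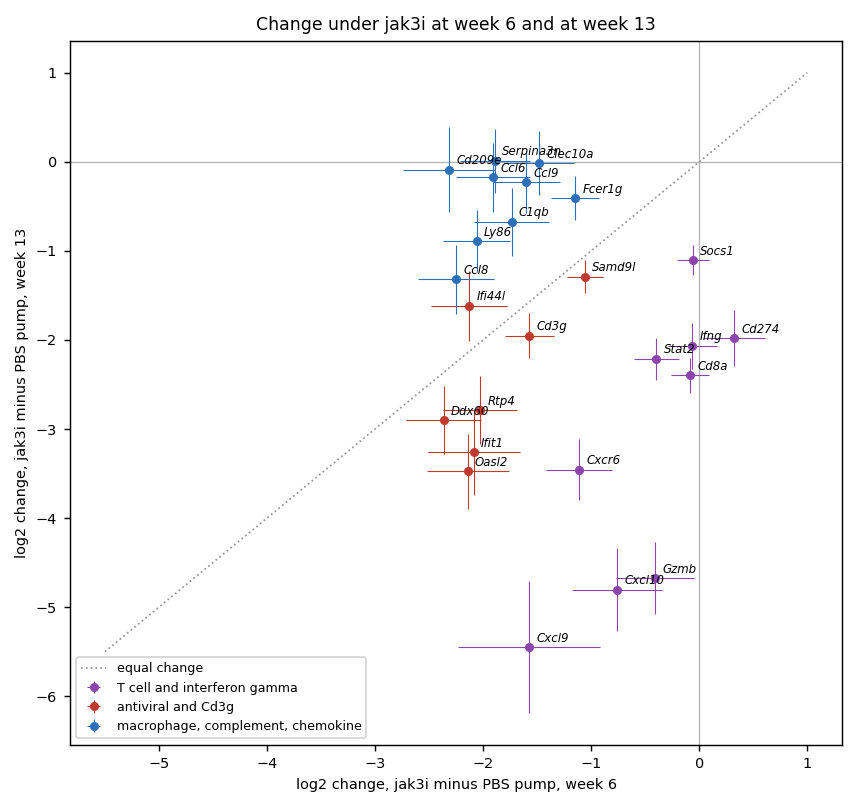
Log2 change, jak3i minus PBS pump, at week 6 (horizontal axis) and at week 13 (vertical axis) for named genes of 3 groups; error bars are standard errors, and the dotted line marks equal change. Cd8a, Gzmb, Ifng, Socs1 and Stat2 lie near 0 at week 6 and well below 0 at week 13, while Serpina3n, Clec10a and Cd209e lie far below 0 at week 6 and near 0 at week 13.

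The other inhibitor at week 6, jak12i, was set against PBS gavage, a pairing known from the study and not from the labels. Doses were not given for either agent. Over PBS gavage, jak12i gave 1106 lower calls (8.1%). The effects of jak3i over PBS pump and jak12i over PBS gavage differed for 323 genes (2.37%). Antiviral genes had a median of -0.82 under jak3i with 15 of 29 lower, and of -0.44 under jak12i with 9 lower. MHC class II genes had medians of -0.68 and -0.51, with 10 and 8 lower. Complement genes had medians of -1.19 and -0.33, with 10 and 0 lower. By the test of the difference itself, 0 of 13 complement genes, 0 of 12 MHC class II genes and 1 of 29 antiviral genes differed between the inhibitors. Of single genes, Ccl11 changed by -1.43 under jak3i and 0.24 under jak12i (limma, adjusted p of the difference 0.00291). Without PBS pump replicate 3 the difference was called for 13 genes. The agent and its vehicle cannot be told apart in this difference.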

How the data were processed

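The deposited table held log2 values for 45101 probe sets on 48 arrays, computed by the authors. RMA is the tool that the submitters' processing notes name, and its version is not given in the sources used here. Whether all arrays were normalized together is not given in the sources used here. Of the probe sets, 34958 had 1 gene symbol, 932 several and 9211 none. For each of 18194 genes the probe set with the highest mean was kept, and 13648 genes above the table median of 6.70 in at least 3 arrays were tested. Fits used limma 3.58.1 in R 4.3.3 on all 47 arrays with a group, with Benjamini-Hochberg adjustment and a threshold of 0.05, and were tested on simulated data. A group mean under 5.61, the highest lower quartile of the week 6 arrays, was called near background, and folds there are bounds against that level. One array whose labels conflict was left out. No replicate block was used in the main fit, because the labels do not say what a replicate number marks. Deviations from the group means correlated at -0.078, 0.105 and -0.111 for same-numbered arrays. For arrays of unlike number they correlated at -0.24 to 0.22, so these values cannot settle whether arrays were paired. P-values rest on the spread between arrays within groups, estimated over all 47 arrays and not over the 8 compared alone. With those 8 alone 296 genes were called, 242 of them shared with the main fit.

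Genes named were the 15 largest rises and falls among called genes without overlap, up to 4 called members of each list (or the 2 of largest change where none was called) and a panel of pathway genes. The gene lists, the comparisons and their members were chosen with earlier results of these data known, and alternatives were normalization, filters, arrays in the fit, vehicles, probe sets, array weights, the replicate block and each array left out. A fit without PBS gavage replicate 5 was chosen after seeing the data. Some genes are not reported here.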

Additional observations from a re-analysis of the deposited data

Results flagged for a closer look

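In groups of 5 arrays, an array was singled out where its gap to the nearest other array was large against the group's range. This happened in 14 of 164 groups tested, and chance gives about 1 in 20. In jak3i replicate 2, the log2 signal was apart for Lmna at 10.9954 (others 11.13 to 11.17), Krtap8-1 at 7.95 (others 5.78 to 6.27), Krt25 at 8.49 (others 5.86 to 6.29). It also had Tchh at 7.91 (others 5.65 to 5.85), Jak2 at 9.44 (others 9.15 to 9.17). In jak3i replicate 2, list means were apart for B cell and plasma cell with a mean of 8.32 (others 7.9964 to 8.07), Inner root sheath with a mean of 7.50 (others 6.66 to 6.83). In jak3i replicate 4, list means were apart for Interferon receptors and regulators with a mean of 7.87 (others 8.02 to 8.06), MHC class II presentation with a mean of 9.13 (others 9.40 to 9.48), Resident and homing T cell with a mean of 7.31 (others 7.41 to 7.43). It also had Complement with a mean of 8.61 (others 9.09 to 9.26), Basal keratinocyte with a mean of 11.46 (others 11.33 to 11.36). In jak3i replicate 1, the log2 signal was apart for Irf9 at 8.48 (others 8.05 to 8.14). In jak3i replicate 5, the log2 signal was apart for Ifng at 5.42 (others 4.56 to 4.80).

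The change under jak3i over PBS pump differed between weeks 6 and 13 by limma's test of the difference for 47 named genes, the value being the week 6 change minus the week 13 change on the log2 scale. It was positive for Gzmb (4.26), Cxcl10 (4.05), Cxcl9 (3.87), Krt6a (2.44), Cxcr6 (2.34), Cd8a (2.31), Cd274 (2.30), Ifng (2.0027) and Stat2 (1.81). It was also positive for Ltb (1.57), Il1rn (1.39), Prf1 (1.27), Il2rb (1.25), Itgae (1.21), Ctsw (1.14), Socs1 (1.04), Rrm2 (1.02) and Tgm1 (1.01). It was also positive for Havcr2 (1.01), H2-K1 (0.88), Glt28d2 (0.82), Il18r1 (0.81), Ak4 (0.75), Ptpru (0.66), Rdh12 (0.63), Lmna (0.62) and H2-D1 (0.59). It was also positive for Pspc1 (0.53), H2-M3 (0.53) and B2m (0.29). It was negative for Wfdc17 (-2.26), Cd209e (-2.22), Col14a1 (-2.15), Ighm (-2.03), Serpina3n (-1.90), Ccl6 (-1.73), Tek (-1.67), Cidec (-1.66) and Scn7a (-1.66). It was also negative for Tslp (-1.64), Clec10a (-1.47), Cma1 (-1.43), Clec4a3 (-1.37), Il33 (-1.36), C1ra (-1.05), Ccl11 (-0.96) and Ifnar2 (-0.66). The adjusted p of these differences lay between 1.52e-06 and 0.05.

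The change under jak3i over PBS pump differed from the change under jak12i over PBS gavage at week 6 for 22 named genes, the value being the jak3i change minus the jak12i change on the log2 scale. It was positive for Aspm (1.94), Il1rn (1.55), Gng4 (0.95), Lmna (0.83), Rdh12 (0.83), Lamb3 (0.80), Pdgfa (0.74), P3h4 (0.64) and Znhit6 (0.61). It was also positive for Kptn (0.55), Glt28d2 (0.54), Ufsp1 (0.52), Pspc1 (0.47) and Ak4 (0.38). It was negative for Chac1 (-2.88), Plac8 (-1.92), Wfdc17 (-1.90), Serpina3n (-1.76), Ccl6 (-1.75), Ccl11 (-1.67), Ifnar2 (-0.64) and Dnajb9 (-0.46). The adjusted p of these differences lay between 0.00291 and 0.0486.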

How the results depend on the processing

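Of the 62 called named genes, 60 kept their call under quantile normalization, 61 with equal array medians, 59 without the filter on low values, 61 with an intensity trend, 53 with the replicate block, 50 with the mean of probe sets, 48 with the 18 week 6 arrays alone or with the 8 arrays alone, and 37 with PBS gavage in place of PBS pump. Leaving out 1 jak3i array kept 54 to 60, and leaving out PBS pump replicate 1, 2 or 3 kept 59, 39 and 38. With the 18 week 6 arrays alone 350 genes were called, with the 8 arrays alone 296, with array weights 1663, with PBS gavage in place of PBS pump 6245 and with both vehicles together 3576, against 559. Quantile normalization gave 663 calls, 31.5% of them higher in place of 11.1%. Leaving out 1 array gave between 165 and 895 calls, the extremes being without PBS pump replicate 2 and without replicate 1. The replicate block gave 402 calls, and what a replicate number marks is not given in the labels. The difference between weeks was called for 2332 genes with array weights and for 749 to 1441 without 1 PBS pump array, against 1256, of which 43.6% were positive after quantile normalization in place of 32.8%. The difference between inhibitors was called for 32 genes with the week 6 arrays alone, 187 with the replicate block, 1107 with array weights, 196 with the mean of probe sets and 13 to 859 without 1 PBS pump array, against 323, with 54.6% positive after quantile normalization in place of 65.6%. The vehicles differed for 3292 to 5008 genes without 1 PBS pump array, against 5078, with 42.3% higher in PBS pump after quantile normalization in place of 25.8%.

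Turned signs are listed only for named genes called in at least 1 of the fits compared. Lamb3, Lama3, Tgm1, Rrm2, Cry1 and Pdk4 among them were not called over PBS pump. With PBS gavage in place of PBS pump the sign turned for Il1rn (-0.77), Gng4 (-0.57), Glt28d2 (-0.17), Rdh12 (-0.20), Rac3 (-0.066), Lmna (-0.025), Preb (-0.10), Pdgfa (-0.26), Znhit6 (-0.098), Ufsp1 (-0.012), Ak4 (-0.44), Pspc1 (-0.35), Lamb3 (-0.46), Lama3 (-0.46), Tgm1 (-0.45), Rrm2 (-0.55), Cry1 (-0.42) and Pdk4 (1.65). With both vehicles together it turned for Il1rn (-0.19), Gng4 (-0.099), Ak4 (-0.12) and Pspc1 (-0.069). The cause was not tested. Of 30 called named genes with several probe sets, 8 had one of opposite sign. With 3 PBS pump arrays, the number of arrays limits the precision.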
